A study of Mus musculus with 6 samples.

Results

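Macrometastasis was compared between the Tim3-KD and the Ctrl tumour in 10415 CD45+ cells, of 23008 cells in the series, over 2595 genes. All cells of this stage were taken, and the library of each cell was read from its barcode. The Ctrl library (Li-Ma-C) held 4913 cells and the Tim3-KD library (Li-Ma-KD) 5502. Both came from livers of Balb/c mice at day 12 after injection, into the heart, of cells of 4T07 (written 4TO7 in the labels), a mouse mammary tumour line that carried either a control vector or a short hairpin RNA against Tim3. The knockdown was in the tumour cells, and no gene was altered in the mice. Immune cells were sorted by CD45, the common leukocyte antigen, from small pieces of metastatic liver and sequenced by 10x Genomics 3' single-cell RNA-seq. The age of the mice was not given in the sources used here. Mice were pooled into 1 library per group, so that no spread between replicates could be measured and no test or p-value is given. A level is given as CPM, the unique molecular identifiers (UMIs) of a gene per 1e6 UMIs of all genes. A ratio is the CPM of Tim3-KD over that of Ctrl, with an exact 95% interval that covers counting error only. A gene is called higher or lower where its ratio was at least 2 or at most 0.5, its interval lay on the same side of 1 and it had at least 50 UMIs over both libraries.

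TIM3, the product of Havcr2, is a surface receptor best known on exhausted T cells and on dendritic cells, where it limits responses. The liver holds resident macrophages (Kupffer cells) that line the sinusoids, sinusoidal endothelial cells beside them, and natural killer (NK) and type 1 innate lymphoid cells. Tumour growth calls neutrophils and monocytes into the organ, and neutrophil precursors that make granule proteases can appear outside the bone marrow. Interferons switch on a shared set of antiviral genes in almost any of these cells.

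Clustering gave 30 clusters, of which 25 could be named from marker genes. The Tim3-KD library was deeper, with 63082006 UMIs against 43459586 and a median of 7342.5 UMIs per cell against 6300. The libraries shared 9 cell barcodes. Neutrophil precursor-like cells made up 3.91% of cells in Ctrl against 7.05% in Tim3-KD, but 13.2% and 24.5% of UMIs, since they held much more RNA per cell. At resolution 0.5 of the clustering their share differed by 0.0861 percentage points in place of 3.14. At that setting a cluster led by Mpo, with Myb and Cd34, was left unnamed and held 72 Ctrl and 371 Tim3-KD cells. The precursor-like name then covered a cluster led by Stfa3 and Ltf, of 429 and 430 cells, and another of 82 and 147. Progenitor-like cells were at 1.04% and 3.13%, endothelial-like cells, which a CD45 sort should leave out, at 7.04% and 2.42%, NK or ILC1-like cells at 3.54% and 1.18%, and dendritic cell-like cells at 3.40% and 1.56%. No marker of tumour or epithelial cells was among the genes of the matrix (0 of 10 listed). The matrix holds selected genes only, so that this absence does not show that such genes were not expressed. Whole-library ratios below move with these shares as well as with the level in a cell, and the share of a type and its RNA per cell cannot be told apart in them.

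Over the whole libraries, 54 of 2595 genes (2.08%) were higher in Tim3-KD and 268 (10.3%) were lower. The deposited matrix held selected genes only, with 13.6% of the UMIs of Ctrl and 12.8% of those of Tim3-KD. Shares of all genes given here are shares of these selected genes, and the part of the selection in them was not tested. The genes that were higher were mostly those of granule-making neutrophil precursors and of dividing cells, and those that were lower were mostly genes of liver endothelium. Of the 54 higher genes 37 had more UMIs in neutrophil precursor-like cells than in any other class, and of the 268 lower genes 198 had more in endothelial-like cells than in any other. The ratio was above 1 for 621 genes and below 1 for 1974, with a median of -0.26 on the log2 scale. The trimmed mean ratio over the genes lay at -0.27 on that scale. Relative to it, 92 genes were higher and 189 lower.

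**Figure D1:**
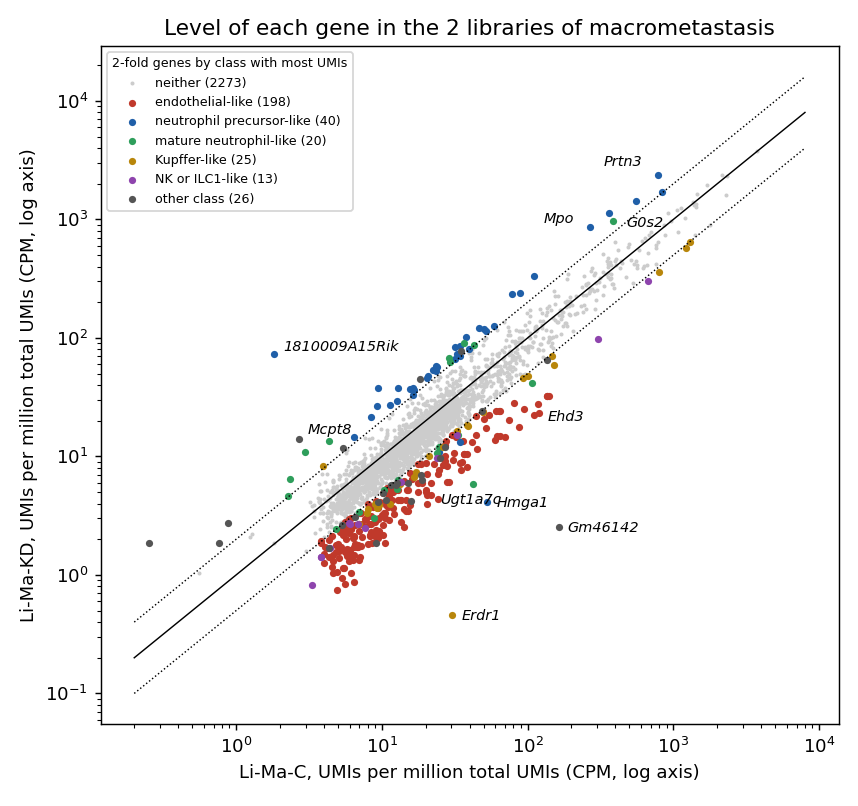
Level of each of the 2595 genes in Ctrl (x axis) and Tim3-KD (y axis), in CPM on log axes, with the lines of equality (solid) and 2-fold difference (dotted). Points in colour are the 322 called genes, by the class with more of their UMIs than any other. The endothelial-like genes lie under the lower dotted line, the neutrophil precursor-like genes mostly above the upper one, and 1810009A15Rik, Gm46142 and Erdr1 lie far from both.

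Azurophil granule genes, which encode the proteases and peroxidase of early neutrophil precursors, were called higher in 7 of 10 members and lower in 0, beside 2.08% of all genes called higher. Their summed level was 2711 CPM in Ctrl against 7139 in Tim3-KD. Mpo, myeloperoxidase, was at 269 and 867 CPM (ratio 3.22, 3.16 to 3.29). Elane, neutrophil elastase, was at 362 and 1138 CPM. Prtn3, proteinase 3, was at 783 and 2378 CPM (ratio 3.04), Ms4a3 at 111 and 333 CPM (ratio 3.01), and Ctsg, cathepsin G, at 555 and 1438 CPM (ratio 2.59). Genes of the later, secondary and tertiary granules had a different pattern. Of 12 members none was called, and the median was 0.02 on the log2 scale. Ngp, a neutrophilic granule protein, was at 3768 CPM in Ctrl against 3755 in Tim3-KD (ratio 0.997), and Lcn2, lipocalin 2, at 2330 and 2316 CPM (ratio 0.994). Fkbp11, a chaperone of secretory proteins, was at 9.39 and 37.7 CPM (ratio 4.01), with more UMIs in the precursor-like cells than in any other class.

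Genes of cell division were higher as well. Of 21 mitosis genes 13 were called higher and 0 lower, and of 4 DNA replication genes 3 and 0, beside 2.08% of all genes called higher. By the mean over cells 1 of the 4 was higher. Top2a, which untangles DNA, was at 37.9 CPM in Ctrl against 102.3 in Tim3-KD (ratio 2.7, 2.56 to 2.85). Stmn1, a regulator of microtubules, was at 88.3 and 238 CPM, Rrm2, a subunit of ribonucleotide reductase, at 31.8 and 84.3 CPM, and the histone gene H1f5 at 78.4 and 236 CPM. Hmmr, a protein of the spindle, was at 9.25 and 26.5 CPM. Myb, a transcription factor of progenitors, was at 13 and 37.9 CPM (ratio 2.92). Mcpt8, a protease of basophils, had more UMIs in progenitor-like cells than in any other class and was at 2.69 and 13.9 CPM (ratio 5.18, 4.26 to 6.33). Cyp11a1, a steroid-making enzyme of mast cells and basophils, was at 0.874 and 2.74 CPM, from 38 and 173 UMIs. Of its values, which lay in 13 Ctrl and 48 Tim3-KD cells, 36 were at the cap of the deposited scores, so that these counts are lower bounds. For Mcpt8 29 values were at the cap.

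All 21 endothelial genes listed had ratios below 1, and 19 of them were called lower, beside 10.3% of all genes. Their summed level was 1555 CPM in Ctrl against 452 in Tim3-KD. Ehd3, a membrane-trafficking protein of sinusoidal endothelium, was at 119.8 and 23.0 CPM (ratio 0.192, 0.181 to 0.204). Clec4g, a sinusoidal lectin, was at 136 and 32.4 CPM, Ptprb, a vascular phosphatase, at 139 and 32.2 CPM, Dnase1l3, a secreted nuclease, at 135 and 32.4 CPM, and the water channel Aqp1 at 117 and 28.0 CPM. Low ratios were also found for endothelial-like genes of lower level, from Aass (5.57 and 0.840 CPM, ratio 0.151) and Pla2r1 (4.92 and 0.745 CPM, ratio 0.151) over Itga8, the Notch ligand Dll4, Ltbp4, Btnl9, the junction protein Cldn5 (24.1 and 4.38 CPM, ratio 0.181) and Lama4 to Hspg2 and Enpep (ratio 0.200). For Aass 22 and for Pla2r1 18 values were at the cap of the deposited scores. Without endothelial-like cells, the count of lower genes over the libraries was 79 in place of 268, and 3 of the 21 endothelial genes were called.

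Dendritic cell genes were called lower in 7 of 14 members, NK receptors in 5 of 14 and cytotoxic genes in 3 of 9, with 0 higher in each list, beside 10.3% of all genes called lower. Xcr1, the chemokine receptor of cross-presenting dendritic cells, was at 15.9 CPM in Ctrl against 4.22 in Tim3-KD (ratio 0.265), Clec9a, their receptor for dead cells, at 18.8 and 6.33 CPM, and Siglech, a receptor of plasmacytoid dendritic cells, at 24.9 and 9.65 CPM. At the cap of the deposited scores were 29 values of Xcr1, 34 of Siglech and 24 of Eomes, whose counts are lower bounds. Gzma, granzyme A, was at 304 and 97.5 CPM (ratio 0.320, 0.311 to 0.330), Prf1, perforin, at 33.0 and 15.3 CPM, Ncr1, the NKp46 receptor, at 24 and 9.67 CPM, and Eomes, their transcription factor, at 6.83 and 2.71 CPM. The chemokine Ccl5 was at 669.7 and 300.02 CPM (ratio 0.448). Genes of MHC class II, which presents peptides to CD4 T cells, had 8 of 8 ratios below 1, beside 1974 of 2595 over all genes, and 2 called lower, with summed levels of 4567 and 2275 CPM. H2-Ab1 was at 1291 and 640.4 CPM (ratio 0.496) and H2-Eb1 at 1217 and 569 CPM (ratio 0.468). Relative to the trimmed mean neither was called, and with equal class shares in both libraries their ratios were 0.715 and 0.680. The lower NK receptors numbered 3 relative to the trimmed mean, the cytotoxic genes 2 and the dendritic cell genes 6.

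In the other lists the counts are to be read against the 10.3% of all genes called lower and 2.08% called higher. B cell and immunoglobulin genes were lower in 2 of 16 members (Ighd, ratio 0.498, and Fcer2a, 0.373), hepatocyte genes in 3 of 9 (Alb, 93.3 and 45.7 CPM), matrix and clotting genes in 4 of 18 with F13a1, a clotting factor subunit of monocytes, higher (35 and 78.1 CPM, ratio 2.23), and chemokines in 3 of 17. Immediate early and stress genes were lower in 2 of 19 (Jun, a subunit of AP-1, 794 and 362 CPM, ratio 0.456, and Egr2, ratio 0.488). Complement and scavenging genes were lower in 2 of 25 (Mertk, a receptor for dying cells, 153 and 59.2 CPM, ratio 0.388, and Stab1, ratio 0.378), lipid-associated macrophage genes in 2 of 15 (Fabp4, ratio 0.413, and Cd36, 0.338) and chemokine receptors in 2 of 14 (Xcr1 and Ccr9). Stab1, Fabp4 and Cd36 had more UMIs in endothelial-like cells than in any other class, with 73.8% of those of Stab1 and 80.8% of those of Fabp4. With equal class shares in both libraries their ratios were 1.19, 1.65 and 0.875. Cytokines had 1 higher, Osm, and 1 lower, Areg, of 14. At the cap of the scores were 34 values of Areg and 27 of Ccr9. Erythroid genes had 1 higher of 5 (Hbb-bs), and Fc receptor and Ms4a genes 1 of 12 (Ms4a3). Pattern recognition, T cell receptor and regulatory T genes had 1 lower each, of 14, 11 and 8. In 7 further lists, of stefin A (6 genes), interleukin-1 pathway (11), checkpoint and costimulation (15), naive T and recirculation (12), acute phase (5), hypoxia and glycolysis (11) and tissue residency (8) genes, no member was called. Relative to the trimmed mean the lower genes numbered 0 in the immediate early, hepatocyte, cytokine, pattern recognition, T cell receptor and regulatory T lists and 1 each in the B cell and chemokine lists, where 2 chemokines were higher. The higher erythroid genes then numbered 4, the matrix and clotting genes 3, the Fc receptor and Ms4a genes 2 and the complement and lipid-associated macrophage genes 1 each. With equal class shares the matrix genes Sparc (1.05), Timp3 (1.43), Col4a1 (1.20) and Col4a2 (1.45), and Trdc (1.01) and Tlr3 (1.01) of the T cell receptor and pattern recognition lists, turned from ratios under 0.5 to ratios above 1.

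Most of these differences were under 2-fold when both libraries were given the same class mix, that is when the level of a gene in each class was averaged with the pooled share of that class. Of the 54 higher genes, 13 remained at least 2-fold higher and all 54 had ratios above 1, and of the 268 lower genes, 12 remained at least 2-fold lower while 88 had ratios above 1. The median over all genes moved from -0.26 to -0.03 on the log2 scale. At the same mix 0 of the azurophil granule, mitosis, endothelial, dendritic cell, NK receptor and DNA replication genes were 2-fold apart in the direction of their calls. Of all 2595 genes 26 were then 2-fold higher and 13 lower. The median of the azurophil granule list was 0.54, that of the mitosis list 0.46 and that of the endothelial list -0.02. Mpo had a ratio of 1.79 and Elane of 1.79, and with the same mix of clusters in place of classes they had 1.17 and 1.22, and Ctsg 0.906. At the same mix of classes Ptprb had 0.983 and Clec4g 0.990. The 13 higher genes included 8 with more UMIs in mature neutrophil-like cells than in any other class, among them Cxcr1 (3.61 over the library and 4.32 at the same mix), Rufy4 (3.13 and 3.78), G0s2 (2.48 and 3.03), Gm29264 (2.74 and 3.08), Steap4 (2.34 and 2.81) and Osm (2.50 and 2.37). With the same mix of clusters, 6 of the 13 remained 2-fold higher. Cxcr1 then had a ratio of 2.28, Gm29264 of 1.99, Rufy4 of 1.87, G0s2 of 1.69, Osm of 1.36 and Steap4 of 1.03. Of genes of progenitor-like cells, Mcpt8 remained 2-fold higher with ratios of 2.54 at the same mix of classes and 2.22 at that of clusters. At resolution 2 a cluster led by Mcpt8 and Cyp11a1, with markers of basophils or mast cells, held 4 Ctrl and 25 Tim3-KD cells, and its part in this ratio was not tested. The 12 lower genes included Mertk (0.388 and 0.460, and 0.508 at the same mix of clusters).

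**Figure D2:**
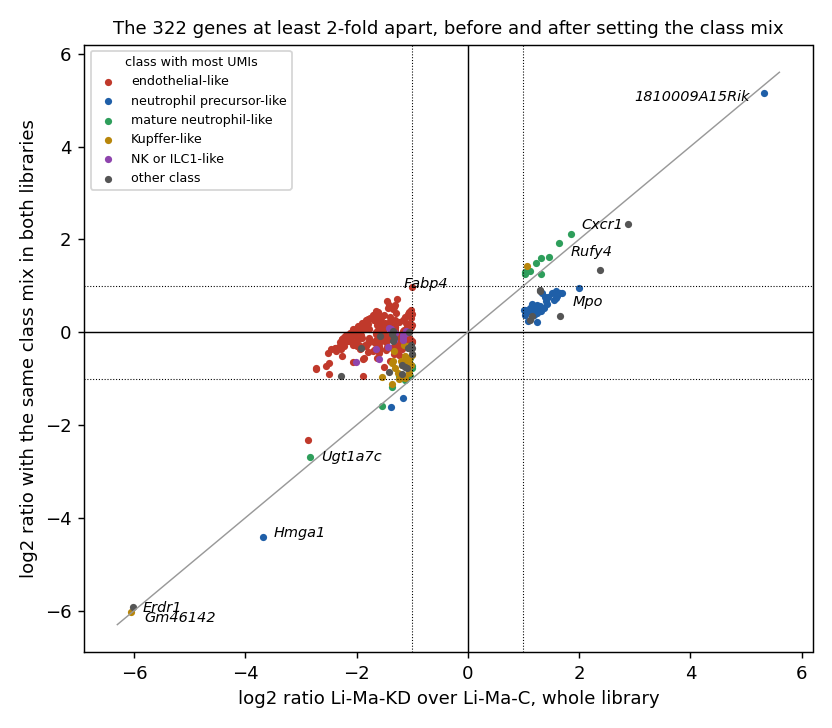
Log2 ratio of Tim3-KD over Ctrl of the 322 called genes, over the whole library (x axis) and with the same class mix in both libraries (y axis). Dotted lines mark a 2-fold difference and the grey line equality. Most endothelial-like genes lie near 0 on the y axis, most neutrophil precursor-like genes between 0 and 1, and 1810009A15Rik, Hmga1, Erdr1 and Gm46142 near the grey line.

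5 genes were called the same way in every class in which they were tested, from 4 to 7 of the 7 classes compared. 1810009A15Rik (chromosome 19, 8888853 to 8890881, plus strand), a small protein-coding gene, had 79 UMIs in Ctrl against 4595 in Tim3-KD, or 1.82 and 72.8 CPM (ratio 40.1, 32.1 to 50.7). It was higher in all 6 classes in which it had 50 UMIs, with ratios from 27.6 in monocyte-like to 56.3 in T-like cells, where Ctrl had 3 UMIs (interval 19.0 to 276). Erdr1, an erythroid differentiation regulator, had 1320 and 29 UMIs, or 30.4 and 0.460 CPM (ratio 0.015), and was lower in all 7 classes. Its UMIs in Kupffer-like cells numbered 347 in Ctrl against 16 in Tim3-KD, and each of the other 6 classes had at most 3 in Tim3-KD. Gm46142 (chromosome 9, 20555329 to 20555809, plus strand), annotated as a processed pseudogene, was at 163 and 2.54 CPM (ratio 0.016) and lower in all 7 classes. Its level was 394 and 3.84 CPM among B-like cells and 47.9 and 0.590 CPM among mature neutrophil-like cells. Hmga1 (chromosome 17, 27556497 to 27563674, plus strand), a chromatin protein of proliferating cells, was at 52.9 and 4.14 CPM (ratio 0.078) and lower in all 6 classes tested. Ugt1a7c (chromosome 1, 88095062 to 88220002, plus strand), an enzyme that conjugates glucuronic acid, was at 41.9 and 5.87 CPM (ratio 0.140) and lower in all 4 classes tested. Coordinates here are those of GRCm38. None of the 5 was among the genes of the micrometastasis matrix, which also held selected genes only. A processed pseudogene can share reads with its parent gene, and Ugt1a7c shares exons with its neighbours, so both levels are uncertain. With 1 library per group, a difference in mice, handling or processing of the libraries cannot be told apart from the knockdown in these 5 genes.

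**Figure D3:**
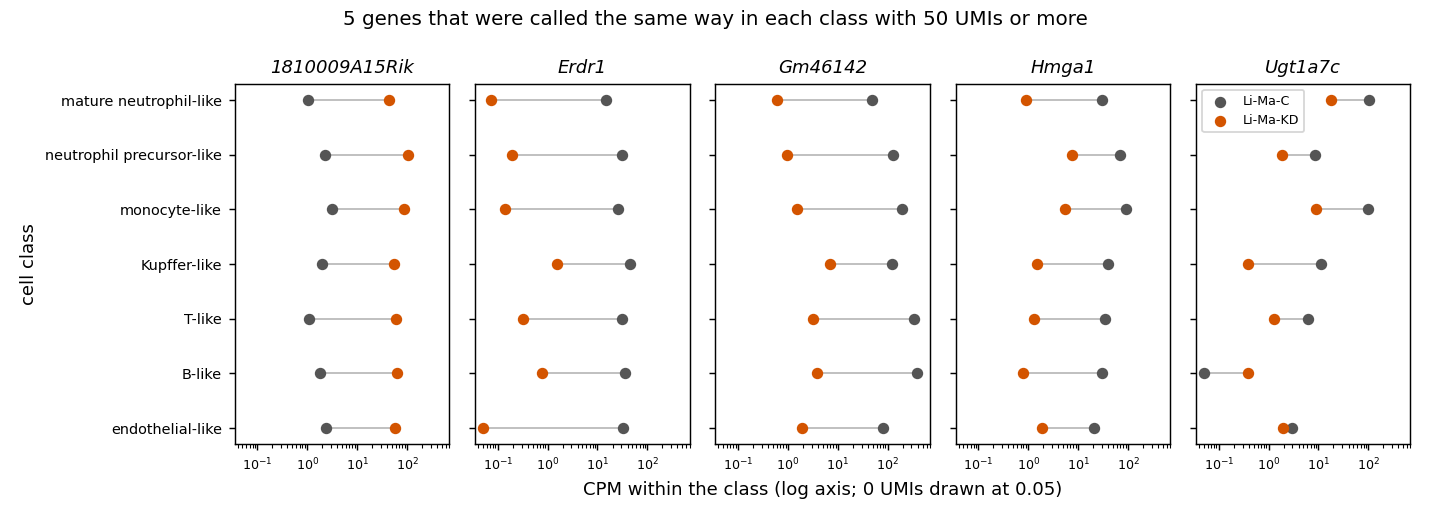
Level of 5 genes within 7 cell classes, in CPM of the class on a log axis, in Ctrl (grey) and Tim3-KD (orange). For 1810009A15Rik the orange points lie to the right in every class, and for Erdr1, Gm46142 and Hmga1 to the left in every class. Ugt1a7c had fewer than 50 UMIs in B-like, T-like and endothelial-like cells, and its orange points lie to the left in the other 4 classes.

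Within the 7 classes that had at least 100 cells in both libraries, the genes called numbered 56 higher and 33 lower in mature neutrophil-like cells (3.06% and 1.8% of those tested), 138 and 81 in neutrophil precursor-like cells (7.87% and 4.62%), 102 and 146 in monocyte-like cells (6.01% and 8.6%), 33 and 99 in Kupffer-like cells (1.72% and 5.16%), 24 and 27 in T-like cells (1.71% and 1.92%), 19 and 51 in B-like cells (1.49% and 3.99%) and 51 and 24 in endothelial-like cells (3.66% and 1.72%). Of the 2595 genes 1919 were called in no class and 528 in 1 class. In monocyte-like cells the trimmed mean lay at -0.31 on the log2 scale, and relative to it 165 genes were higher and 61 lower. Without cluster 24 the class had 34 higher and 52 lower. Mature neutrophil-like cells had 14 higher without cluster 4 (0.795% of those tested), and 60 lower at resolution 0.5. At that resolution precursor-like cells had 20 higher and 53 lower.

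**Figure D4:**
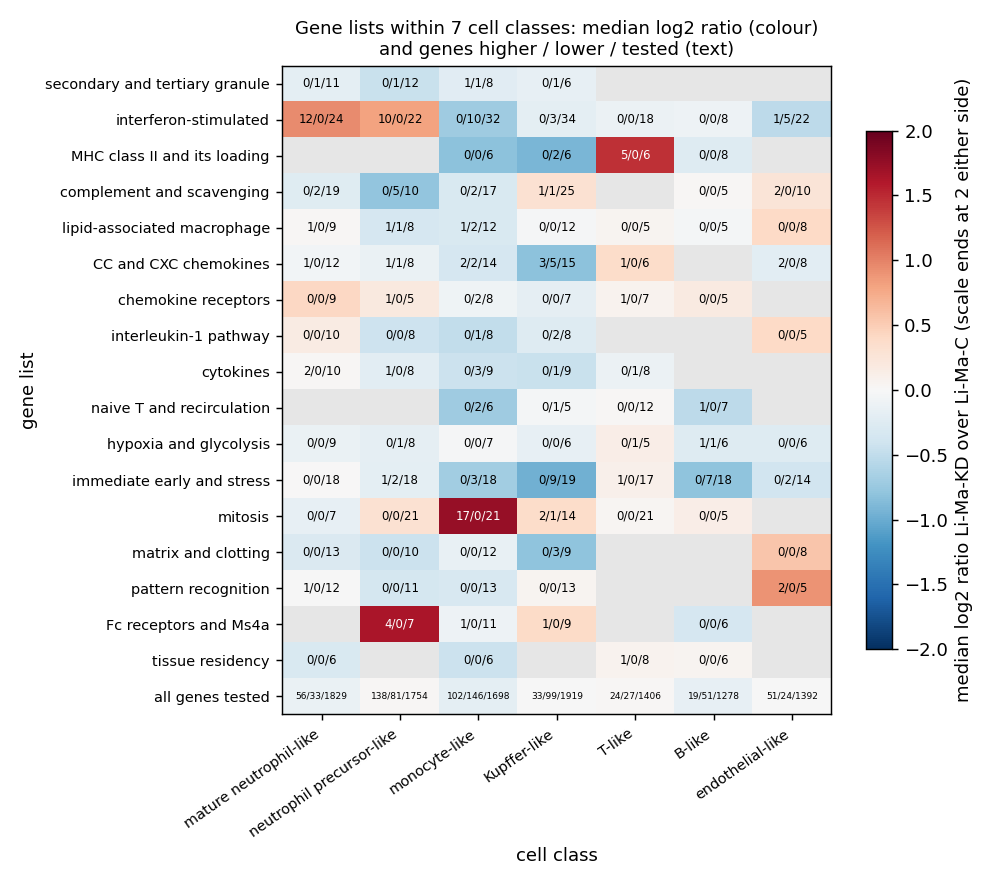
Gene lists (rows) within 7 cell classes (columns). Colour is the median log2 ratio of Tim3-KD over Ctrl over the members tested, and the text gives the members higher, lower and tested. Lists with fewer than 5 members tested in a class are grey. Interferon-stimulated genes are red in both neutrophil classes (12 of 24 and 10 of 22 higher) and blue in monocyte-like cells (10 of 32 lower).

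Interferon-stimulated genes, which block viral growth and sense nucleic acids, were called higher in some classes and lower in others, and the difference between classes was not tested. Over the whole libraries 0 of 34 were called higher and 4 lower, beside 2.08% and 10.3% of all genes, with a median of -0.08 on the log2 scale. The lower ones numbered 1 relative to the trimmed mean, 1 without endothelial-like cells and 0 at the same class mix. Among mature neutrophil-like cells 12 of the 24 tested were higher and 0 lower (1 of 22 higher without cluster 4), beside 3.06% of all genes tested there (0.795% without cluster 4), and their summed level was 1205 CPM in Ctrl against 2366 in Tim3-KD. In neutrophil precursor-like cells 10 of 22 were higher, beside 7.87%, although their summed level was 380 and 358 CPM. In monocyte-like cells 10 of 32 were lower and 0 higher, beside 8.6%, with a median of -0.71 on the log2 scale. Relative to the trimmed mean of the monocyte-like class 5 were lower, with a median of -0.39. In Kupffer-like cells 3 of 34 were lower, beside 5.16% of all genes, and in endothelial-like cells 5 of 22 were lower and 1 higher, beside 1.72% and 3.66%. In T-like and B-like cells 0 of 18 and 0 of 8 were called. Of all genes 1.92% were lower and 1.71% higher in T-like cells, and 3.99% and 1.49% in B-like cells.

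In mature neutrophil-like cells Isg15, a ubiquitin-like modifier, was at 228 CPM in Ctrl against 521 in Tim3-KD (ratio 2.28, 2.18 to 2.39). Ifit1, which binds foreign RNA, was at 26.0 and 73.6 CPM (ratio 2.83), Oasl2, an oligoadenylate synthetase-like protein, at 10.0 and 48.1 CPM (ratio 4.80, 3.93 to 5.90), and Irf7, a transcription factor that amplifies interferon, at 45.0 and 119 CPM (ratio 2.66). The guanylate-binding protein gene Gbp2 was at 42.1 and 109 CPM (ratio 2.59), Slfn5 at 43.4 and 129.8 CPM (ratio 2.99) and Slfn8 at 14.7 and 30.0 CPM (ratio 2.04), both of the Schlafen family. The levels in precursor-like cells were far lower. Gbp2 was at 2.27 and 5.24 CPM there (ratio 2.31), Slfn5 at 3.14 and 8.74 CPM (ratio 2.78), Slfn8 at 0.873 and 3.30 CPM (ratio 3.78, 1.52 to 12.1) and Gbp3 at 3.67 and 13 CPM (ratio 3.55). Ifi209 had 0 UMIs in Ctrl against 76 in Tim3-KD, which at a floor of 3 UMIs in Ctrl was at least 9.39-fold higher. In monocyte-like cells the genes named next were lower, by ratios that do not allow for the trimmed mean of the class, -0.31 on the log2 scale. Without cluster 24 the median of the list was -0.23 on that scale, with ratios up to 1.39. Isg15 was at 272 CPM in Ctrl against 127 in Tim3-KD (ratio 0.467, 0.424 to 0.514), Ifit1 at 25.5 and 7.66 CPM (ratio 0.300), Ifit3 at 35.7 and 6.84 CPM (ratio 0.192), Oasl2 at 42.3 and 16.4 CPM (ratio 0.388) and Cxcl10, a chemokine that draws T cells, at 179 and 37.6 CPM (ratio 0.210). Cxcl10 was lower in Kupffer-like cells too, at 58.7 and 20.4 CPM, while Gbp2, Slfn5 and Slfn8 were not called in monocyte-like or Kupffer-like cells.

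**Figure D5:**
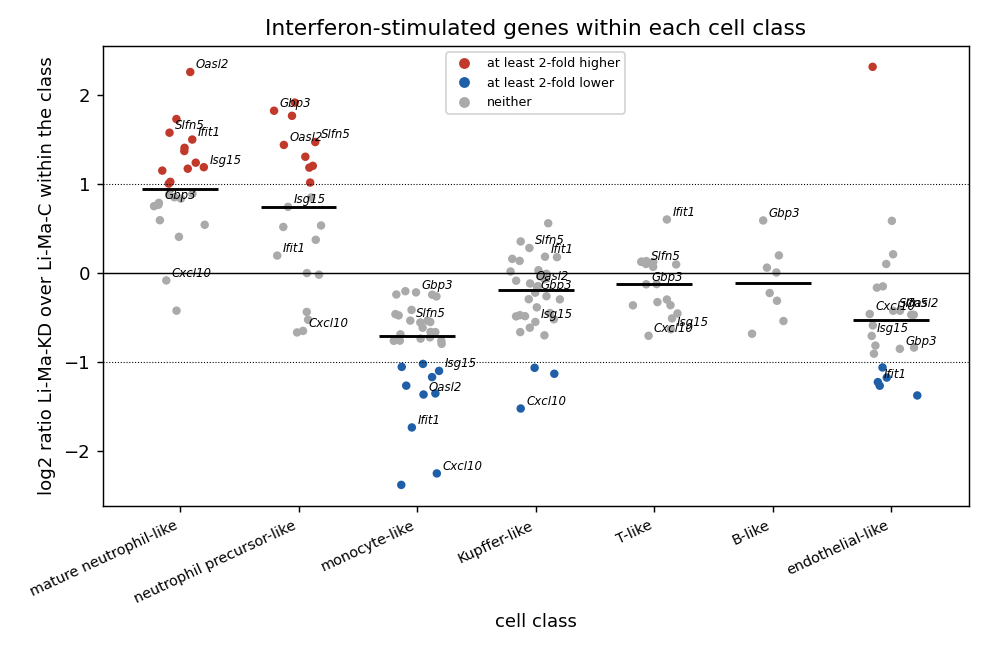
Log2 ratio of Tim3-KD over Ctrl of each interferon-stimulated gene within 7 cell classes. Each point is a gene with at least 50 UMIs in the class and a UMI in both libraries, black bars are medians of the points drawn, and dotted lines mark a 2-fold difference. Points of mature neutrophil-like and neutrophil precursor-like cells lie mostly above 0, those of monocyte-like cells all below it. Ratios are not relative to the trimmed mean of each class.

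Clusters took different parts of a class in the libraries, and the counts moved with them. Cluster 4, which had Isg15 and Ifit1 among its leading genes, held 5.37% of mature neutrophil-like cells in Ctrl against 33.1% in Tim3-KD. Without it 1 of 22 interferon-stimulated genes was higher in the class. The clustering used these genes. Within single mature clusters the counts were 5 of 23 genes lower in cluster 4 (4.49% of all genes tested there), 5 of 13 lower in cluster 3 (2.69%), 1 of 19 higher and 1 lower in cluster 7 (1.7% and 1.61%), and 0 called in clusters 0 and 6. In precursor-like cells the counts within clusters were 7 of 11 higher in cluster 16, led by Ltf and Camp (8.7% of all genes), 4 of 6 in cluster 18, led by Ctsg and Mpo (7.15%), and 2 higher and 1 lower of 5 in cluster 21 (2.44% and 3.3%). A clustering at resolution 0.5 gave 0 higher in its precursor-like class, which did not hold the cluster led by Mpo, left unnamed there. In monocyte-like cells, 4 of 32 were lower without cluster 24 (3.66% of all genes), whose cells expressed division genes and which held 9 Ctrl and 95 Tim3-KD cells. Within cluster 9, the largest monocyte-like cluster, 3 of 31 were lower, beside 5.18% of all genes. In cluster 10, the larger endothelial-like cluster, 10 of 21 were lower and 0 higher, beside 3.02%.

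The regulatory sequence is shown for the 8 genes of the list that were higher in both neutrophil classes, or went opposite ways in mature neutrophil-like and monocyte-like cells. Interferon-activated factors bind repeats of GAAA spaced by a pair of bases, and the motif of GAAA, NN (any 2 bases) and GAAA was searched on both strands in the 250 bases before each RefSeq start (GRCm38.p6). Capitals mark the match, which reads TTTC, NN and TTTC where it lies on the other strand. Gbp2, Slfn5, Slfn8, Oasl1, Oasl2 and Herc6 were higher in both neutrophil classes, and Isg15, Ifit1 and Oasl2 were higher in mature neutrophil-like and lower in monocyte-like cells. The sequences of Oasl1, Oasl2 and Herc6 hold no match.
Gbp2 (chr3:142620413-142620662, plus strand): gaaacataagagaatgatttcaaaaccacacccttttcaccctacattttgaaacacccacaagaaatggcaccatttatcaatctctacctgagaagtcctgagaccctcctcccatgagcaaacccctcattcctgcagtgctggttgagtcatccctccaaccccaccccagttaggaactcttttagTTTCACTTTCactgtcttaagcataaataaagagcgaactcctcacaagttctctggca
Slfn5 (chr11:82951852-82952101, plus strand): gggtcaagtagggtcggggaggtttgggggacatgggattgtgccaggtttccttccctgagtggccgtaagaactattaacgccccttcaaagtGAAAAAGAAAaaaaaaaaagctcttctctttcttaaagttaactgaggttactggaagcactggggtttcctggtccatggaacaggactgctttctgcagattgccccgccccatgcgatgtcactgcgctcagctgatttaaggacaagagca
Slfn8 (chr11:83020811-83021060, minus strand): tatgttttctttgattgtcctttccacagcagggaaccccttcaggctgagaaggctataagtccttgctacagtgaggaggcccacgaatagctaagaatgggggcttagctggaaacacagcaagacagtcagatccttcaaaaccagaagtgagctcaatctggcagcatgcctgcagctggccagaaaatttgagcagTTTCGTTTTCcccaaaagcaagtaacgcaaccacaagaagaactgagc
Isg15 (chr4:156200819-156201068, minus strand): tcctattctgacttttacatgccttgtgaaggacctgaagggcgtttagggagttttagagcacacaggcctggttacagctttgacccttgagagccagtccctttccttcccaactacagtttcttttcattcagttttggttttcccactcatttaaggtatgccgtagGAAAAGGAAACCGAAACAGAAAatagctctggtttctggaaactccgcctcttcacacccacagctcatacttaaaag
Ifit1 (chr19:34640639-34640888, plus strand): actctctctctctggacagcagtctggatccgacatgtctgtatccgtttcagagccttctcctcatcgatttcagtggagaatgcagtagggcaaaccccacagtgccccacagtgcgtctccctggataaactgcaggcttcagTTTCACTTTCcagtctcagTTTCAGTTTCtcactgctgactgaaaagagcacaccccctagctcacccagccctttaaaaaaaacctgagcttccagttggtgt
Oasl1 (chr5:114922990-114923239, plus strand): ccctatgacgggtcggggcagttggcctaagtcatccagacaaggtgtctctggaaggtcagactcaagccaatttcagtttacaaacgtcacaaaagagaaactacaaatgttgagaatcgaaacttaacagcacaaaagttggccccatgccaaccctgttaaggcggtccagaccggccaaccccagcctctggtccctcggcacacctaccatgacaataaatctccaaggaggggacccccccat
Oasl2 (chr5:114896684-114896933, plus strand): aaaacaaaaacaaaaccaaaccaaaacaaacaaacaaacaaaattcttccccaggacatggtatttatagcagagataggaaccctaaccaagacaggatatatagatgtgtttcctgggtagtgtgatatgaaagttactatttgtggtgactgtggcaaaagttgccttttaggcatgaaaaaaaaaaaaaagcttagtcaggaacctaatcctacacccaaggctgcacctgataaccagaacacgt
Herc6 (chr6:57580742-57580991, plus strand): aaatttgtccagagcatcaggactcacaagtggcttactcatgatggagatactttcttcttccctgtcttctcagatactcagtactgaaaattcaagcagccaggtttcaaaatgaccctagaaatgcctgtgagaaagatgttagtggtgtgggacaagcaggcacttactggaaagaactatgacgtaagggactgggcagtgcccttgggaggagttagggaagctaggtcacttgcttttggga
The matches began 59 bases before the start in Gbp2, 155 in Slfn5, 48 in Slfn8, 104 and 85 in Ifit1, and 78, 72 and 66 in Isg15, where the 3 matches overlap and form a single run. Slfn8 had 2 promoters in the table and the one with the match is shown. Of the 6 genes higher in both neutrophil classes 3 held the motif, and Oasl1, Oasl2 and Herc6 did not. Of the 3 genes that went opposite ways (Isg15, Ifit1 and Oasl2) 2 held it. It was found in 16 of the 28 interferon-stimulated genes with a promoter in the table (57.1%), beside 936 of 27025 genes (3.46%) and 978 of 32851 promoters (2.98%). A match describes the letters of this window and is not a measured site.

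Mature neutrophil-like cells also had higher levels of genes outside the interferon list. The genes higher in the class numbered 56, and 14 without cluster 4. Over the library the ratios of G0s2, Cxcr1, Rufy4, Steap4 and Osm, given above, were lower at the same mix of clusters than at that of classes. G0s2, an inhibitor of fat breakdown, was at 1189 CPM in Ctrl against 3764 in Tim3-KD (ratio 3.17, 3.11 to 3.23), Cxcr1, a receptor for neutrophil-attracting chemokines, at 10.5 and 46.2 CPM (ratio 4.41, 3.63 to 5.41), Rufy4 at 14.3 and 56.1 CPM (ratio 3.93) and Steap4, a metalloreductase, at 99 and 287 CPM (ratio 2.90). Osm, oncostatin M, a cytokine of the interleukin-6 family, was at 88.9 and 230.0 CPM (ratio 2.59) and in precursor-like cells at 24.3 and 60.8 CPM (ratio 2.50). Fabp5, a fatty acid-binding protein, was about 3-fold higher in mature neutrophil-like (ratio 3.03), precursor-like (3.00) and monocyte-like cells (3.25). G0s2 and Steap4 were leading genes of clusters 4 and 7. Camp, the cathelicidin of secondary granules, was lower, at 611 and 265 CPM (ratio 0.434). It was the only gene called of 11 secondary and tertiary granule genes tested, beside 1.8% of all genes lower. The median of that list was -0.19 on the log2 scale. Stefin A genes, which inhibit cathepsins, were not called in mature cells (0 of 6), where Stfa2l1 was at 2181 and 2405 CPM. Mpo was at 1.48 and 8.26 CPM (ratio 5.57) and Elane at 1.05 and 5.24 CPM, levels far below those of precursor-like cells. The same low-level difference in Mpo was measured in Kupffer-like cells, at 1.43 and 4.87 CPM, and its part in these calls was not tested.

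In neutrophil precursor-like cells 1 of 12 secondary and tertiary granule genes was lower and 0 higher, beside 4.62% and 7.87% of all genes. Their median was -0.44 on the log2 scale and their summed levels were 47792 and 31427 CPM. Stefin A genes were lower in 4 of 6 members, beside 4.62% of all genes (Stfa2l1, 2152 CPM in Ctrl against 859 in Tim3-KD, ratio 0.399). Without cluster 18, the azurophil stage, 0 of 6 were lower, beside 33 of 1246 genes. That cluster held 19.8% of the class in Ctrl against 39.2% in Tim3-KD. Of 10 azurophil granule genes 1 was higher, beside 7.87% of all genes, and 0 without cluster 16, beside 95 of 1576 genes. Ngp had a ratio of 0.625. Of 7 Fc receptor and Ms4a genes tested 4 were higher, beside 7.87% of all genes, namely Ms4a4c, Ms4a6b, Ms4a6c and Ms4a6d. Genes higher in the class numbered 138, and 20 at resolution 0.5. Ms4a6c was at 6.81 and 52.1 CPM (ratio 7.65, 5.55 to 10.8), Irf8, a transcription factor of the monocyte and dendritic cell lineage, at 4.72 and 36.8 CPM (ratio 7.79, 5.30 to 11.9), and the chemokine Ccl9 at 15.9 and 50.1 CPM (ratio 3.15). Ifi202b was at 0.873 and 8.16 CPM (ratio 9.34), and Steap4 at 1.92 and 15.8 CPM (ratio 8.22). Of 10 complement and scavenging genes 5 were lower, beside 4.62% of all genes, including C1qa (9.96 and 4.08 CPM) and the Kupffer marker Clec4f (9.78 and 3.50 CPM). These are macrophage transcripts at low levels, and their part in the other differences was not tested.

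Cell division and azurophil granule genes were higher in monocyte-like cells. Of 21 mitosis genes 17 were higher and of 4 DNA replication genes 4, beside 6.01% of all genes. Top2a was at 43.0 and 236 CPM (ratio 5.49), Mki67, a marker of cycling cells, at 41.6 and 197 CPM (ratio 4.74), and Rrm2 at 6.29 and 116 CPM (ratio 18.4, 11.6 to 31.2). Without cluster 24 the count for mitosis was 1 of 10, beside 2.39% of all genes, and at resolution 0.5 of the clustering it was 0. Azurophil granule genes were higher in 7 of 9, in 4 of 6 without cluster 24 (2.39% of all genes) and in 4 at resolution 0.5. Elane was at 18.9 and 404 CPM (ratio 21.4, 16.4 to 28.6) and Ctsg at 27.3 and 342 CPM (ratio 12.6). Without cluster 24 the largest ratio of the 6 azurophil granule genes tested was 6.25. Lower genes included the chemokine receptor Cx3cr1 (49.6 and 23.4 CPM), the cytokine Tnf (43.7 and 17.9 CPM), Batf3, a factor of dendritic cells (52.8 and 16.1 CPM), and Lpl, lipoprotein lipase (39.2 and 9.85 CPM). Lower were 2 of 8 chemokine receptors, 3 of 9 cytokines, 4 of 8 dendritic cell genes and 2 of 12 lipid-associated macrophage genes. Of these lists only the last had a higher gene, 1. Over all genes 8.6% were lower, and 3.66% without cluster 24. Relative to the trimmed mean of -0.31 the 146 lower genes numbered 61. The part of cluster 24 in the genes named was not tested. Siglech, of plasmacytoid dendritic cells, was at 17.8 and 1.51 CPM and the B cell genes Cd79a and Igkc at ratios of 0.332 and 0.253. The part of these transcripts of other cells was not tested.

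Kupffer-like cells of the libraries lay in different clusters. Cluster 1, led by Mertk, Hbegf and Lpl, held 723 Ctrl and 233 Tim3-KD cells, and cluster 5, led by Marco, Cd5l and Apoc1, held 16 and 520. Kupffer markers were high in both libraries, with Clec4f at 6195 CPM in Ctrl against 7381 in Tim3-KD and Vsig4, a complement receptor, at 1959 and 2573 CPM. Over the class Marco, a scavenger receptor, was at 206 and 472 CPM (ratio 2.29, 2.17 to 2.43) and Mertk at 729 and 307 CPM (ratio 0.421, 0.403 to 0.440). Both genes lead clusters that differ between the libraries, so these ratios describe the clusters as well. Ddit4, a stress-induced inhibitor of growth signalling, was at 5.34 and 55.1 CPM (ratio 10.3, 7.52 to 14.5), and Ttc39c at 9.63 and 40.4 CPM (ratio 4.19). Ddit4 was called in none of the other 4 classes where it was tested, with 14.9 and 12.5 CPM in mature neutrophil-like cells.

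Immediate early genes, the first to be transcribed on a stimulus, were lower in Kupffer-like cells in 9 of 19, beside 5.16% of all genes, and higher in 0. Jun was at 2268 CPM in Ctrl against 973 in Tim3-KD (ratio 0.429, 0.419 to 0.440), Egr1 at 1278 and 456 CPM (ratio 0.357), Egr2 at 64.3 and 12.6 CPM (ratio 0.196) and Nr4a1, an orphan nuclear receptor, at 434 and 202 CPM (ratio 0.465). Without cluster 5 the count was 4 of 19, beside 5.01%, and within cluster 1 it was 1 of 19, beside 3.5% of all genes. Of 9 cytokine genes 1 was lower and of 8 interleukin-1 pathway genes 2, beside 5.16% of all genes. Tnf was at 80.6 and 15.8 CPM (ratio 0.196, 0.164 to 0.233), Nlrp3, a subunit of the inflammasome, at 178 and 83.6 CPM, the chemokine gene Ccl4 at 763 and 300.5 CPM, and Cxcl1 at 233 and 104 CPM. Of 15 chemokine genes 5 were lower and 3 higher, beside 5.16% and 1.72% of all genes. The part of clusters 1 and 5 in the cytokine, interleukin-1 and chemokine counts was not tested. The higher chemokines were Ccl6 (583 and 1232 CPM), Ccl9 (28.5 and 71.9 CPM) and Cxcl13, which draws B cells (223 and 487 CPM). MHC class II genes were lower in 2 of 6, beside 5.16% of all genes, and in 3 of 6 without cluster 5, beside 5.01%. The 2 were H2-Eb1 (3030 and 1503 CPM, ratio 0.496) and their transactivator Ciita (51.3 and 23.5 CPM, ratio 0.458), and H2-Aa was at 3436 and 1758 CPM. Of the haemoglobin genes, Hbb-bs was at 1.3 and 23.6 CPM in Kupffer-like and at 1.10 and 23.0 CPM in B-like cells, with 3 UMIs in B-like cells of Ctrl (ratio 20.9, 6.81 to 104).

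In B-like cells immediate early and stress genes were lower in 7 of 18, beside 3.99% of all genes, and in 7 of 18 within cluster 2 alone (4.58% of all genes), which held 90.7% of the class in Ctrl against 74.7% in Tim3-KD. Jun was at 646 and 236 CPM (ratio 0.365, 0.332 to 0.4), Nr4a1, which B cells express after receptor signalling, at 533 and 214 CPM (ratio 0.403), and the heat-shock gene Hspa1a at 166 and 47.6 CPM (ratio 0.286). Egr1 was not called in these cells, at 205 and 237 CPM. Relative to the trimmed mean of the class, -0.18 on the log2 scale, 4 of the 18 were lower. The histone gene H2bc4 was at 285 and 45.3 CPM (ratio 0.159, 0.130 to 0.193). Ccl5, a chemokine usual in T and NK cells, was at 18 and 70.2 CPM (ratio 3.90), and Ass1, argininosuccinate synthase, at 12.5 and 31.1 CPM.

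T-like cells had few called genes. The histone gene H2ac6 was at 35.5 and 5.14 CPM (ratio 0.145, 0.0796 to 0.246) and was lower in precursor-like cells too (94.0 and 16.7 CPM). Trdc, the constant part of the delta chain, was at 34.5 and 12.2 CPM (ratio 0.354, with 26 of its values in all cells at the cap) and Ncr1 at 58.6 and 27.3 CPM. Trdc was the only gene called of 11 T cell receptor genes, and Ncr1 the only one of 12 NK receptors, beside 1.92% of all genes lower. The medians of these lists were 0.27 and 0.19 on the log2 scale. Xcl1, a chemokine for cross-presenting dendritic cells, was at 87.0 and 224 CPM (ratio 2.57), 1 of 6 chemokines higher. MHC class II genes were higher in 5 of 6, beside 1.71% of all genes, and in 2 at resolution 0.5, among them H2-Aa (61.8 and 174 CPM, ratio 2.82). Of 6 B cell and immunoglobulin genes 2 were higher in the same cells, Cd79a at 9.59 and 31.1 CPM (ratio 3.25) and Igkc at 51.2 and 137 CPM (ratio 2.69), and 4 were not called. The part of B cell transcripts in the MHC class II count was not tested.

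Endothelial-like cells numbered 346 in Ctrl against 133 in Tim3-KD. Cluster 25, led by Fabp4 and Timp3, held 13.3% of them in Ctrl against 31.6% in Tim3-KD. Within them 0 of 21 endothelial genes were called, with ratios from 0.744 to 1.36. Some genes of neutrophils and macrophages were called higher, beside 3.66% of all genes. Higher were 2 of 3 stefin A and 2 of 10 complement and scavenging genes. None was called of 3 secondary and tertiary granule and 8 lipid-associated macrophage genes. G0s2 was at 23.8 and 678 CPM (ratio 28.5, 20.5 to 40.6), Csf3r, the receptor for granulocyte colony-stimulating factor, at 19.6 and 139.8 CPM (ratio 7.13), Asprv1 at 22 and 161 CPM (ratio 7.32), the stefin gene Stfa2l1 at 44.0 and 216 CPM, and the complement gene C1qb at 13.7 and 65.1 CPM. Stefin A genes reached 50 UMIs only in cluster 25 of the 2 endothelial-like clusters, with summed levels of 696.6 and 1426 CPM there. The part of these transcripts of other cells in the endothelial-like profile was not tested. Lower genes included Rsad2, an antiviral enzyme (124 and 47.9 CPM, ratio 0.385), Nr4a1 (56.5 and 19.2 CPM, ratio 0.339) and Klf2, a factor induced by blood flow (1378 and 653 CPM, ratio 0.474).

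Havcr2 itself (chromosome 11, 46454935 to 46481255, plus strand) had 551 UMIs in Ctrl against 531 in Tim3-KD, or 12.7 and 8.42 CPM (ratio 0.664, 0.588 to 0.749), a difference under 2-fold. The mean over cells gave a ratio of 0.953 and the same class mix 0.947, and dendritic cell-like cells held 32.6% of its UMIs. Among T-like cells its level was 19.9 and 29.2 CPM (ratio 1.47, 1.04 to 2.09), and within monocyte-like cells at 18.9 and 14.0 CPM (ratio 0.740, 0.527 to 1.05). Since the knockdown was made in cells that the CD45 sort leaves out, Havcr2 does not check the labels.

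The comparison of Tim3-KD with Ctrl at day 3, in micrometastasis, was set beside these values for the 1763 genes that both matrices held. There 17 of 2627 genes (0.647%) were higher and 471 (17.9%) lower over the whole library. Of the 42 higher genes of macrometastasis that both held, 8 were higher in micrometastasis and 1, G0s2, was lower (ratio 2.48 in macrometastasis and 0.469 in micrometastasis). Of 104 lower genes, 72 were lower in micrometastasis and 0 higher. Among the 1763 genes that both held, 404 (22.9%) were lower in micrometastasis and 13 (0.737%) higher. The shared higher genes were 19.0% of the macrometastasis calls and 61.5% of the micrometastasis calls among genes in both, and the shared lower genes 69.2% and 17.8%. The stages differ in day and in class shares, and the difference between them was not tested.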

How the data were processed

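CD45+ cells of 2 libraries, 1 for each group, were analysed. Per the study's methods, the authors trimmed reads with Trim Galore 0.4.3, mapped them to GRCm38 with STAR 2.7.7a, kept reads on exons or introns for the UMI counts, and removed doublets. The deposited values were scaled scores of selected genes: log counts per 10000 with the total regressed out, centred and divided by the SD of each gene, and capped at 10. The test plan had assumed counts. The scores were inverted to UMI counts per cell, of which 99.9971% were whole within 0.05, and 0.1533% of values were capped. Python 3.11.15, NumPy 2.4.6, pandas 2.3.3, SciPy 1.17.1, scikit-learn 1.9.0, leidenalg 0.10.2, igraph 0.11.9 and Matplotlib 3.10.9 were used.

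UMIs were summed per library and class and divided by all UMIs. Intervals were exact Clopper-Pearson intervals at 95%, for counting error only. Cells were clustered (30 components, 15 neighbours, resolution 1), and classes were named from markers, with thresholds for naming set after the clusters were seen. No cell was left out. A simulated doublet score was over 0.15 in 2.18% of Ctrl and 3.16% of Tim3-KD cells. Features of more than 1 gene (48) were not used. Genes named were the 15 with the largest ratio in each direction at 200 UMIs or more, 3 in each direction per class at 100 or more, and 4 per list. Mitochondrial, ribosomal, haemoglobin and variable-segment genes were left out of this rule. Havcr2 was always named. Other list members and Hbb-bs were named after their values were seen. The gene lists (32) were chosen with earlier results of these data known. Multigene families, such as stefin A and Schlafen genes, may share reads. Alternatives were other thresholds, scalings, mixes and clusterings. The script was tested on simulated data. The adjacent-tissue data were not used here.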

Additional observations from a re-analysis of the deposited data

Results flagged for a closer look

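The pairs of values given here were opposite calls for a gene in different classes or stages. With 1 library per group, the difference between the members of a pair was not tested.

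Within classes, Oasl2 had a ratio of 4.80 in mature neutrophil-like cells and 0.388 in monocyte-like cells. G0s2 had 28.5 in endothelial-like and 0.201 in T-like cells, and over the whole libraries 2.48 in macrometastasis and 0.469 in micrometastasis. Asprv1 had 7.32 in endothelial-like and 0.451 in neutrophil precursor-like cells, and Stfa2l1 had 4.92 in endothelial-like and 0.363 in monocyte-like cells. H2-Eb1 had 3.33 in endothelial-like and 0.496 in Kupffer-like cells, and H2-Aa had 2.82 in T-like and 0.449 in neutrophil precursor-like cells. Ccl5 had 3.90 in B-like and 0.496 in Kupffer-like cells. Ube2c had 2.08 in monocyte-like and 0.330 in Kupffer-like cells, Ttc39c 4.19 in Kupffer-like and 0.489 in monocyte-like cells, and Cd79a 3.25 in T-like and 0.332 in monocyte-like cells.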

How the results depend on the processing

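No paired analysis was possible because each group had 1 library, and for the same reason none was left out. Capped values and the depth of a class limit what can be called.

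The 54 higher genes were 113 at 1.5-fold, 12 at 3-fold, 92 relative to the trimmed mean and 26 at the same class mix. The 268 lower genes were 599, 124, 189 and 13, and 79 without endothelial-like cells. With the same mix of clusters in place of classes, 6 in place of 13 higher genes remained 2-fold.

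At the same class mix the counts of the azurophil (7), mitosis (13), DNA replication (3), endothelial (19), dendritic cell (7), NK receptor (5) and interferon-stimulated (4) lists were 0. By the cell mean DNA replication had 1 and dendritic cell 4. Relative to the trimmed mean NK receptors had 3 and interferon-stimulated 1, and lower MHC class II, hepatocyte and immediate early genes (2, 3 and 2) numbered 0. Without endothelial-like cells the endothelial list had 3 and the interferon-stimulated list 1.

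Ratios that turned direction without endothelial-like cells were Ltbp4 1.06, Sparc 1.13, Timp3 1.22 and Col4a2 1.17. At the same class mix they were Stab1 1.19, Fabp4 1.65, Klra7 1.05, Trdc 1.01, Klk1 1.02, Sparc 1.05, Timp3 1.43, Col4a1 1.20, Col4a2 1.45 and Tlr3 1.01.

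Within classes at 1.5-fold, higher and lower genes numbered 45 and 167 in B-like, 96 and 250 in Kupffer-like, 75 and 81 in T-like, 124 and 72 in endothelial-like, 141 and 198 in mature neutrophil-like, 160 and 380 in monocyte-like and 294 and 260 in neutrophil precursor-like cells. In mature neutrophil-like cells 14 were higher without cluster 4, and 19 were lower relative to the trimmed mean and 60 at resolution 0.5. In monocyte-like cells 165, 40 and 34 were higher and 61, 65 and 52 lower relative to the trimmed mean, at resolution 0.5 and without cluster 24. In neutrophil precursor-like cells 20 were higher at resolution 0.5, and 53 and 153 lower at resolutions 0.5 and 2.

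Interferon-stimulated genes higher in mature neutrophil-like cells numbered 1 without cluster 4. In neutrophil precursor-like cells they numbered 0 at resolution 0.5, 5 at resolution 2, 5 without cluster 16 and 6 without cluster 21. Those lower in monocyte-like cells numbered 5 relative to the trimmed mean, 3 at resolution 0.5 and 4 without cluster 24. Immediate early genes lower numbered 4 in Kupffer-like cells without cluster 5 and 4 in B-like cells relative to the trimmed mean. Stefin A genes lower in neutrophil precursor-like cells numbered 0 at resolution 0.5 and 0 without cluster 18. In monocyte-like cells mitosis genes numbered 0 at resolution 0.5 and 1 without cluster 24, and azurophil granule genes 4 and 4. MHC class II genes higher in T-like cells numbered 2 at resolution 0.5.

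Shares in percentage points (Tim3-KD minus Ctrl) were -1.53 in place of -2.36 for NK or ILC1-like cells without cells under 3000 UMIs. At resolution 0.5 they were 1.93 in place of 0.159 for T-like, 0.832 in place of 2.79 for monocyte-like and 0.0861 in place of 3.14 for neutrophil precursor-like cells. With another seed they were 1.27 for monocyte-like and 3.60 in place of 2.09 for progenitor-like cells. At resolution 0.5 the cluster led by Mpo was unnamed, and a cluster led by Xcl1, of 192 Ctrl and 298 Tim3-KD cells, was T-like. At resolution 1 a cluster led by Xcl1, of 97 and 170 cells, was unnamed. The part of naming in these moves was not tested.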
